A study of Mus musculus with 20 samples.

Results

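A set of 10 p53 pathway genes was followed across the heart chambers of newborn mice: Trp53, which encodes p53 itself, and Cdkn1a, Mdm2, Ccng1, Aen, Phlda3, Trp53inp1, Eda2r, Zmat3 and Sesn2, which are known p53 targets in growth arrest, stress signalling and feedback. They were chosen by gene symbol, with earlier results of these data known. All 10 were found among the 55367 genes listed and among the 16598 genes that passed the filter on low counts. C57BL/6J pups were kept from birth to postnatal day 4 either in room air, at 21% oxygen, or in hyperoxia, at 100% oxygen. Polyadenylated RNA of the left atrium and of the left ventricle was then sequenced, with 5 libraries in each of the 4 groups, each from 1 mouse by the labels. The labels name no mutation, transgene or other agent in any group, and dams were exchanged between the oxygen levels daily. Neither the sex of the pups nor whether an atrium and a ventricle of the same number came from the same pup is given.

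p53 is a transcription factor whose amount is set mainly by how fast the protein is degraded, so its activity is usually read from its target genes and not from its own transcript. DNA damage and other stress free p53 from the ubiquitin ligase MDM2, and p53 in turn switches on Mdm2, which closes a feedback loop. Among its targets Cdkn1a encodes p21, an inhibitor of cyclin-dependent kinases that stops the cell cycle and that is also known to lie behind the repression of many cell cycle genes. In mice, cardiomyocytes largely leave the cell cycle in the days after birth.

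The atrium and the ventricle differed in these genes. In the left atrium 9 of the 10 transcripts were higher after hyperoxia, by 1.52-fold to 5.71-fold, and Trp53 did not pass the test. In the left ventricle 4 of the 10 (Ccng1, Aen, Eda2r and Sesn2) were higher, by 1.303-fold to 1.57-fold, and Cdkn1a, among the strongest in the atrium, did not pass. Every adjusted p below is from the edgeR quasi-likelihood test with Benjamini-Hochberg adjustment over the 16598 genes tested, with 0.05 as the threshold for passing. Levels are in CPM, which are counts relative to the scaled library size, given as mean ± SD with n = 5 libraries a group.

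Total counts per library ranged from 26510081 to 38244117, and the smallest count of any of the 10 genes in any library was 129 (Sesn2 in a room-air ventricle). The chamber labels were checked with myosin light chains. Myl7, the atrial chain, was at 4325 to 11370 CPM in the atria and at 2.66 to 529.5 CPM in the ventricles, and Myl2, the ventricular chain, was at 14326 to 28928 CPM in the ventricles and at 5.59 to 327.9 CPM in the atria. Room-air ventricle 1 had the most Myl7 of the ventricles and room-air atrium 1 the most Myl2 of the atria. All 10 room-air libraries had more Y-linked than Xist reads, as had hyperoxic atrium 2 and hyperoxic ventricles 2 and 6, so sex and oxygen are partly confounded. Hyperoxic atria 2 and 4 and room-air ventricle 4 were tilted towards short transcripts, with slopes of log2 CPM on log2 exon length of -0.29, -0.28 and -0.22. The slopes of the other 17 lay between -0.069 and 0.13. In the ventricles every hyperoxic slope (0.036 to 0.096) was above every room-air slope (-0.22 to 0.024). The tilt and oxygen are therefore confounded in the ventricle. In the bulk RNA of a chamber, a change in the number of cells of a type and a change in RNA per cell cannot be told apart.

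The promoters are shown first because p53 acts through a DNA element of 2 adjacent half-sites, each of 10 bases. RefSeq promoters (GRCm38.p6, 250 bases before to 50 after a start) were matched by symbol for 8 of the 10 genes, with 10 windows in all. Trp53inp1 and Zmat3 had no entry. The p53 consensus reads the same on both strands, and each window was scanned for the 20 bases with the fewest mismatches to it. Both windows below are the 250 bases before the start, 5′ to 3′ on the strand of the gene, with the best 20 bases in capitals. They are the closest to the consensus among the 8 genes with a window, each with 1 mismatch.
Cdkn1a, chr17:29090729-29090978, plus strand: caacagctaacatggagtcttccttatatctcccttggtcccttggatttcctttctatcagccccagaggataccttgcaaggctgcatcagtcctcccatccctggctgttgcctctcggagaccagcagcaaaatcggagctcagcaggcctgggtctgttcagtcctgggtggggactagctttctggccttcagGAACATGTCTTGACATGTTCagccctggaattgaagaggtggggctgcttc
Ccng1, chr11:40755287-40755536, minus strand: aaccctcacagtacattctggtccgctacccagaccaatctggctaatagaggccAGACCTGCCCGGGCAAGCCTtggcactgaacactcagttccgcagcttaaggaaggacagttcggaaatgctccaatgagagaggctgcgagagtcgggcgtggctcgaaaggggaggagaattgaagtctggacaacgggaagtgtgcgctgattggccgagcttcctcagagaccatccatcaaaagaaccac

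The Cdkn1a element lies 51 to 32 bases before the start. Its first half-site is exact, and its second holds the mismatch. The window holds 2 exact half-sites, the other lying outside the element. In the window of the other Cdkn1a start, chr17:29093519-29093818, the best 20 bases had 5 mismatches. The Ccng1 element lies 195 to 176 bases before the start. To show where the next elements depart from the consensus, the 20 bases of 4 genes follow with matching bases in capitals and mismatches in lower case.
Cdkn1a: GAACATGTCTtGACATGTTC
Ccng1: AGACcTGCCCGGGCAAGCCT
Aen: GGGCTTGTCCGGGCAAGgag
Trp53: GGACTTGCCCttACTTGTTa

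The Aen element, with 3 mismatches, lies 10 to 29 bases after the first of its starts and 121 to 102 bases before the next. That of Trp53, also with 3, lies 75 to 56 bases before its start. Mdm2, Phlda3 and Sesn2 had 5 mismatches at best and Eda2r had 6. Among all 32851 RefSeq promoters of this length, 29 (0.0883%) held 20 bases with at most 1 mismatch, 6.29% held some with at most 3 and 76.6% some with at most 5. So the Cdkn1a and Ccng1 windows are uncommon by this count, and those with 5 mismatches are not. Introns, other sequence outside these windows and half-sites with bases between them were not searched. A poor match here therefore does not show that a gene lacks a p53 element. Of the 8 tested genes whose best promoter had exactly 1 mismatch, 5 rose in the hyperoxic atrium: Cdkn1a, Ccng1, Rps27l (1.48 on the log2 scale), Mthfd1 (1.06) and Gtse1 (0.65), the last 3 named here for this reason after their values were seen. The other 3 (Bank1, Calhm2 and Eprn) did not pass, nor did Sptbn4, the single tested gene with an exact match, and these 4 genes had means of 0.709 to 5.62 CPM in the atria. Among the 94 genes at 2 mismatches 29 rose and 33 fell, with a median log2 difference of -0.14, and at 3 or more between 19.9% and 21.5% rose. A match describes letters in a window and is not a measured binding site.

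On GRCm38, the annotation places Trp53 at chr11:69580359-69591873, Cdkn1a at chr17:29090976-29100727, Aen at chr7:78895854-78911209, Phlda3 at chr1:135766119-135769136 and Trp53inp1 at chr4:11156431-11174379 on the plus strand. It places Mdm2 at chr10:117688875-117710758, Ccng1 at chr11:40748552-40755311, Eda2r at chrX:97333840-97377216, Zmat3 at chr3:32334792-32366014 and Sesn2 at chr4:132492032-132510501 on the minus strand. The values below are counts over the exons of each gene.

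**Figure D1:**
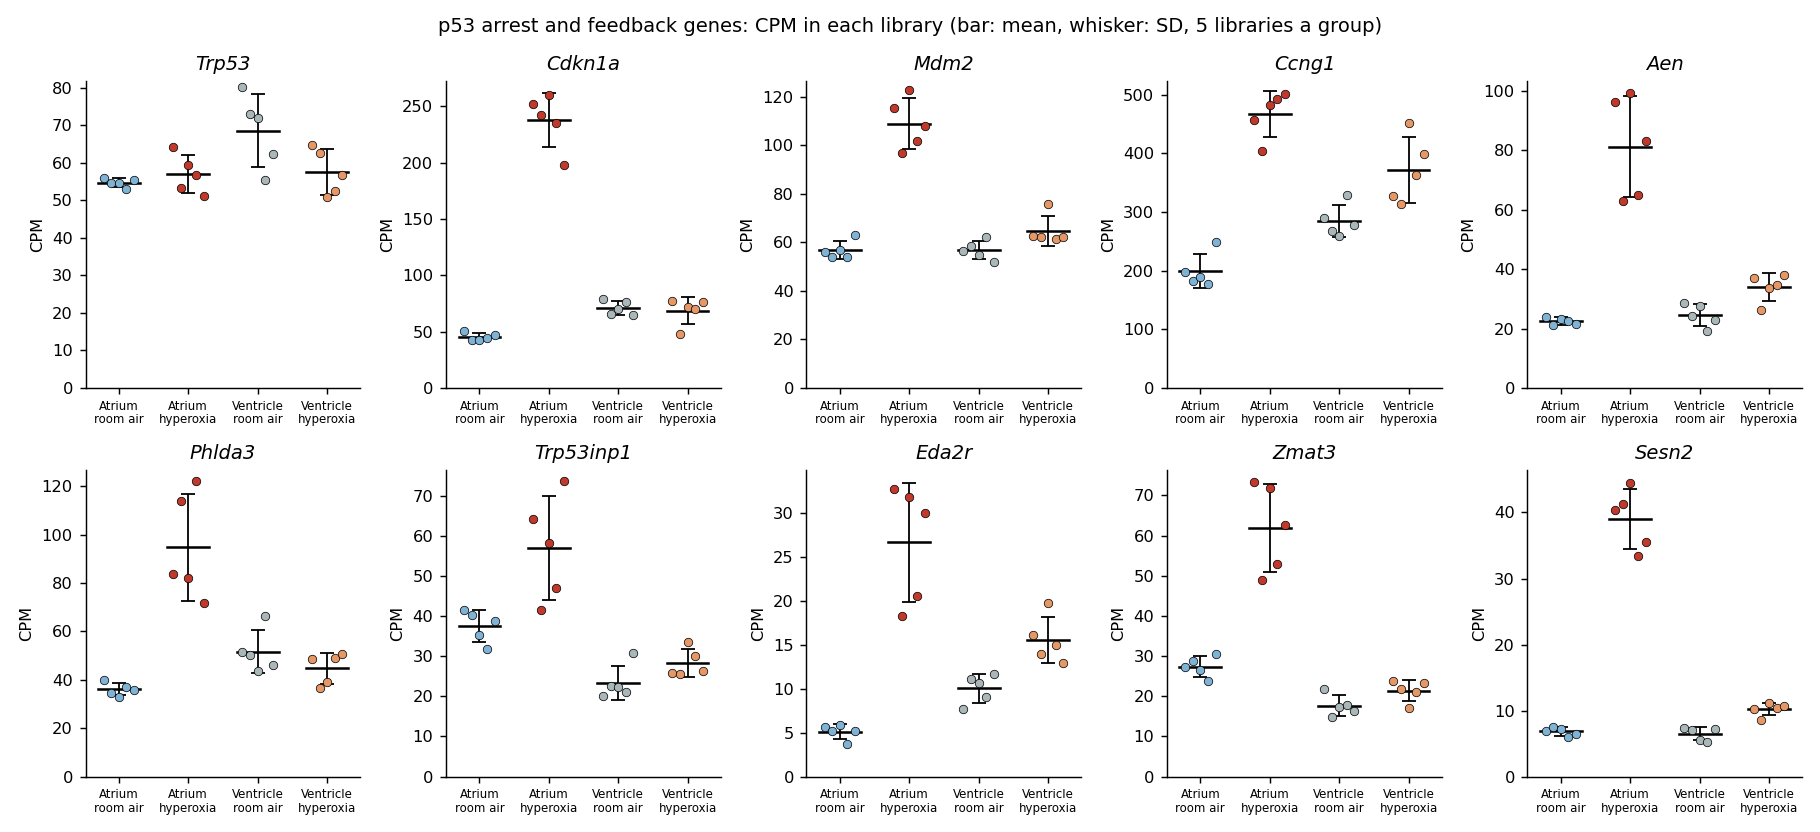
CPM of each of the 10 genes in every library, by group (n = 5 libraries each), with each panel on its own axis from 0; horizontal bars are means and whiskers SD. In 9 panels every hyperoxic atrium lies above the highest room-air atrium, while the Trp53 panel shows 4 overlapping groups.

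Trp53, the gene of the transcription factor itself, did not pass the test of hyperoxia in either chamber. It was at 55.9, 54.6, 54.6, 52.9 and 55.3 CPM in room-air atria 1 to 5 and at 64.2, 53.2, 59.2, 56.8 and 51.2 CPM in the hyperoxic atria. In the ventricles it was at 80.3, 72.8, 71.8, 55.4 and 62.2 CPM in room air and at 64.7, 62.5, 50.7, 52.4 and 56.8 CPM in hyperoxia (numbers 1, 2, 4, 5 and 6). The room-air atria lay inside the range of the hyperoxic atria, and 3 room-air ventricles stood above every other library. The log2 difference was 0.06 in the atrium (SE 0.09, adjusted p = 0.64) and -0.25 in the ventricle (SE 0.09, adjusted p = 0.081). The ventricular decrease passed in 5 of 35 other settings, among them the fit without the 3 tilted libraries (-0.32, adjusted p = 0.010).

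Mdm2 and Ccng1 are the feedback genes: MDM2 marks p53 for degradation, and cyclin G1 is a p53-induced protein that binds the phosphatase PP2A and acts on MDM2. Mdm2 was at 56.0, 53.9, 57.0, 53.8 and 63.1 CPM in room-air atria 1 to 5 and at 115, 96.7, 123, 102 and 108 CPM in the hyperoxic atria, with no overlap. Its atrial rise was 1.92-fold (log2 0.94, SE 0.08, adjusted p = 1.2e-08). In the ventricles the groups overlapped narrowly, at 52.0 to 62.0 CPM in room air and 61.4 to 75.9 CPM in hyperoxia, and the difference did not pass (log2 0.19, SE 0.08, adjusted p = 0.12). Ccng1 was the most abundant of the 10 in every group, also per kilobase of exon. Room-air atria 1 to 5 held 198, 182, 189, 178 and 249 CPM of it, and the hyperoxic atria 457, 403, 482, 492 and 500.4 CPM, again without overlap (2.34-fold, log2 1.23, SE 0.11, adjusted p = 2.2e-08). Room-air ventricles 1 to 5 held 289.8, 268, 259, 329 and 278 CPM, and hyperoxic ventricles 1, 2, 4, 5 and 6 held 328, 313, 451, 364 and 399.5 CPM. The ventricular groups overlapped only through room-air ventricle 4, one of the tilted libraries, and the rise of 1.303-fold passed (log2 0.38, SE 0.11, adjusted p = 0.033).

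Cdkn1a, which encodes the cell cycle inhibitor p21, had the largest difference between chambers in its response. It was at 50.3, 42.6, 42.9, 44.4 and 46.5 CPM in room-air atria 1 to 5 and at 252, 243, 260.1, 235 and 198 CPM in the hyperoxic atria. Room-air ventricles 1 to 5 had 78.6, 65.6, 69.7, 76.1 and 64.3 CPM, and hyperoxic ventricles 1, 2, 4, 5 and 6 had 76.9, 48.0, 71.6, 70.4 and 76.2 CPM. The lowest hyperoxic atrium was thus above every ventricle, and the ventricular groups overlapped almost fully apart from the low ventricle 2. The atrial rise was 5.24-fold (log2 2.39, SE 0.11, adjusted p = 3.1e-12). In the ventricle the log2 difference was -0.05 (SE 0.11, adjusted p = 0.80), and its normal 95% interval spans -0.26 to 0.17, so a rise of the atrial size lies outside that interval. Without hyperoxic ventricle 2 the ventricular value was 0.06.

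Zmat3 encodes an RNA-binding zinc finger protein that acts in p53-dependent growth control. It was at 27.2, 28.8, 26.5, 23.9 and 30.6 CPM in room-air atria 1 to 5 and at 73.4, 48.9, 71.9, 52.9 and 62.5 CPM in the hyperoxic atria. The groups did not overlap, and the 2 lowest hyperoxic atria were the tilted libraries 2 and 4. The rise was 2.26-fold in the atrium (log2 1.18, SE 0.12, adjusted p = 1.6e-07). In the ventricles it ranged from 14.7 to 21.8 CPM in room air and from 17.0 to 23.9 CPM in hyperoxia (log2 0.28, SE 0.13, adjusted p = 0.13).

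Sesn2 encodes sestrin 2, a stress protein that binds GATOR2 and restrains the growth kinase complex mTORC1, and it is known as a target of ATF4 and NRF2 as well as of p53. Room-air atria 1 to 5 had 6.97, 7.58, 7.22, 5.95 and 6.44 CPM and the hyperoxic atria 40.4, 41.4, 44.5, 33.5 and 35.5 CPM. Room-air ventricles 1 to 5 had 7.34, 7.06, 5.62, 5.30 and 7.16 CPM and hyperoxic ventricles 1, 2, 4, 5 and 6 had 10.2, 8.63, 11.2, 10.4 and 10.7 CPM. It was 1 of only 2 of the 10 genes, with Eda2r, whose groups were separate in both chambers. Its atrial rise, the largest of the 10, was 5.71-fold (log2 2.51, SE 0.11, adjusted p = 3.1e-12), and its ventricular rise 1.57-fold (log2 0.65, SE 0.11, adjusted p = 0.0017). The ventricular call held in 33 of 35 other settings.

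Phlda3 and Trp53inp1 act on signalling around p53: PHLDA3 is a pleckstrin-homology protein that competes with the kinase AKT for membrane lipids, and TP53INP1 is a stress protein that promotes p53 phosphorylation and autophagy. Phlda3 was at 39.8, 34.6, 33.0, 37.1 and 36.0 CPM in room-air atria 1 to 5 and at 83.6, 114, 82.3, 122 and 71.6 CPM in the hyperoxic atria (2.63-fold, log2 1.39, SE 0.14, adjusted p = 8.7e-08). The groups were separate, and here the tilted libraries 2 and 4 were the 2 highest. In the ventricles it ranged from 43.8 to 66.3 CPM in room air and from 36.6 to 50.6 CPM in hyperoxia (log2 -0.20, SE 0.14, adjusted p = 0.34), with the tilted room-air ventricle 4 the highest. With the length slope as a covariate that value was 0.07. Trp53inp1 had the smallest atrial rise of the 9, from 41.5, 40.3, 35.3, 31.9 and 38.9 CPM to 64.2, 41.5, 58.1, 47.1 and 73.8 CPM (1.52-fold, log2 0.60, SE 0.14, adjusted p = 0.0014). Hyperoxic atrium 2, at 41.5 CPM, was only just above the highest room-air atrium. The rise did not pass with Y-linked reads as a covariate (log2 0.36, adjusted p = 0.11), nor in the subset whose Y-linked reads outnumber Xist (log2 0.14, adjusted p = 0.57), where hyperoxic atrium 2 is the only hyperoxic atrium. Its ventricular difference was 0.28 (SE 0.14, adjusted p = 0.19).

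Aen and Eda2r are linked to cell death: AEN is an apoptosis-enhancing exonuclease, and EDA2R is the receptor for the EDA-A2 form of ectodysplasin. Aen rose from 24.0, 21.1, 23.3, 22.7 and 21.5 CPM in room-air atria 1 to 5 to 96.1, 62.9, 99.3, 64.8 and 83.1 CPM in the hyperoxic atria (3.61-fold, log2 1.85, SE 0.14, adjusted p = 9.8e-10). Eda2r rose from 5.67, 5.18, 5.83, 3.72 and 5.17 CPM to 32.7, 18.3, 31.8, 20.5 and 30.0 CPM (5.21-fold, log2 2.38, SE 0.17, adjusted p = 1.1e-09). For both genes the atrial groups were separate and the lowest hyperoxic atria were again 2 and 4. In room-air ventricles 1 to 5 Aen was at 28.5, 24.3, 27.6, 19.1 and 22.8 CPM and in hyperoxic ventricles 1, 2, 4, 5 and 6 at 37.1, 26.2, 33.7, 34.5 and 38.2 CPM (1.39-fold, log2 0.47, SE 0.13, adjusted p = 0.029). Only hyperoxic ventricle 2 fell within the room-air range. Eda2r was at 7.73, 11.1, 10.6, 8.995 and 11.7 CPM in room-air ventricles and at 16.1, 13.97, 19.7, 15.0 and 12.9 CPM in hyperoxic ventricles, without overlap (1.55-fold, log2 0.63, SE 0.17, adjusted p = 0.023).

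**Figure D2:**
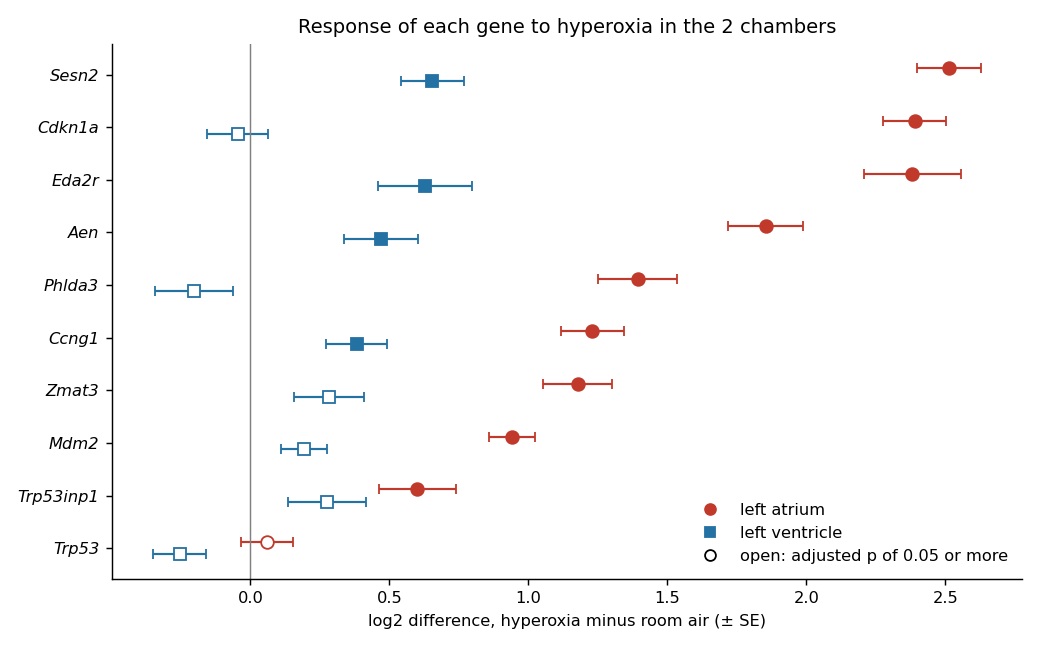
Log2 difference between hyperoxia and room air for each gene (points, ± SE) in the left atrium (circles) and left ventricle (squares), with open symbols where the adjusted p is 0.05 or more. All atrial points but that of Trp53 lie at 0.60 or more, and no ventricular point exceeds 0.65.

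Counted together, 9 of the 10 genes rose in the hyperoxic atrium, where 43.9% of all genes tested passed in either direction and 19.7% were higher. The same 9 had no overlap between their atrial groups, against 13.6% of all genes with every hyperoxic atrium above every room-air one. Their median log2 difference was 1.31, and that of all genes was -0.06. In the ventricle 4 rose and none fell, where 10.9% of all genes passed, 5.64% higher and 5.28% lower. Groups without overlap were found for 2 of the 10, both higher, against 6.51% of all genes higher and 5.93% lower. The ventricular median of the 10 was 0.28, and that of all genes -0.01. The 4 genes that rose in both chambers stand against 2.05% of all genes. As the 10 genes were chosen with earlier results of these data known, these shares describe them and are no test. The atrial count was 8 or 9 in all 33 other settings. The ventricular count rested on single libraries: 1 gene rose without hyperoxic ventricle 4, and 2 rose without hyperoxic ventricle 5 or 6 or without room-air ventricle 1, 2, 4 or 5. Adding Y-linked reads to the model left 1 rise and adding ventricular Myl7 left 0. Ventricular Myl7 was itself at 19.5 to 529.5 CPM in room air and at 2.66 to 127.5 CPM in hyperoxia, so it is partly confounded with oxygen. Dropping the 3 tilted libraries gave 5 rises and the fall of Trp53. Over the 35 settings the ventricular rise passed in 26 for Eda2r, 23 for Ccng1 and 22 for Aen.

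The difference between the responses was tested directly, as the atrial minus the ventricular log2 difference. It passed for 8 of the 10 genes, all with the larger rise in the atrium, where 36.5% of all genes passed and 17.0% had the larger value in the atrium. Cdkn1a differed the most (2.44, SE 0.15, adjusted p = 1.7e-09), then Sesn2 (1.86, SE 0.16, adjusted p = 5.9e-08), Eda2r (1.75, SE 0.24, adjusted p = 1.8e-05) and Phlda3 (1.60, SE 0.20, adjusted p = 6.0e-06). Aen (1.38), Zmat3 (0.89), Ccng1 (0.85) and Mdm2 (0.75) also passed, with adjusted p between 1.7e-05 and 6.6e-04. Trp53 (0.31, adjusted p = 0.071) and Trp53inp1 (0.32, adjusted p = 0.21) did not. For Zmat3 the difference did not pass in the subset whose Y-linked reads outnumber Xist (0.48, adjusted p = 0.089).

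In room air the atrium did not stand above the ventricle in most of these genes. Of the 10, 5 were lower in the room-air atrium (Trp53, Cdkn1a, Ccng1, Phlda3 and Eda2r) and 2 were higher (Trp53inp1 and Zmat3), where 55.0% of all genes passed, 28.7% higher and 26.3% lower. The lower genes were led by Eda2r (log2 -0.97, SE 0.17, adjusted p = 6.5e-05) and Cdkn1a (-0.64, SE 0.11, adjusted p = 3.4e-05), followed by Ccng1 (-0.52), Phlda3 (-0.52) and Trp53 (-0.33). Trp53inp1 was higher by 0.68 and Zmat3 by 0.64. For Mdm2 (0.00), Sesn2 (0.07) and Aen (-0.12) the chambers did not differ beyond their spread, and the sign for Mdm2 and Sesn2 turned with the scaling or filter.

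After hyperoxia most of these genes were higher in the atrium, as Trp53inp1 and Zmat3 already were in room air. Of the 10, 9 were higher in the atrium than in the ventricle, where 48.8% of all genes passed and 25.2% were higher, with Trp53 level (log2 -0.01, SE 0.09, adjusted p = 0.93, of either sign across settings). Sesn2 (1.93), Cdkn1a (1.79) and Zmat3 (1.53) had the largest atrial excess and Ccng1 the smallest (0.33, SE 0.11, adjusted p = 0.017). The Ccng1 call was lost without hyperoxic ventricle 1 (0.29, adjusted p = 0.052) or 2 (0.27, adjusted p = 0.056), and in the subset whose Y-linked reads outnumber Xist (0.18, adjusted p = 0.52). That subset also ended the Eda2r call (0.44, adjusted p = 0.19). Cdkn1a, Ccng1, Phlda3 and Eda2r passed in both comparisons with opposite signs, lower in the atrium in room air and higher in hyperoxia, a pattern found in 2.44% of all genes. The chamber comparisons use the same libraries as the responses to hyperoxia and are not independent of them.

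**Figure D3:**
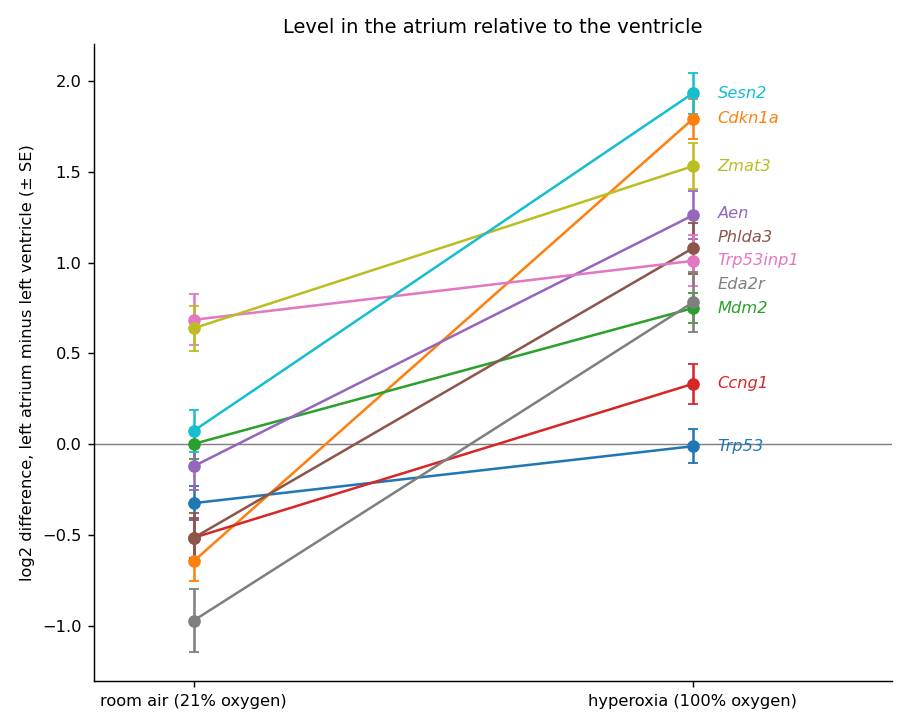
Log2 difference between left atrium and left ventricle (± SE) for each gene in room air and in hyperoxia, with lines joining the 2 values of a gene. The lines of Cdkn1a, Ccng1, Phlda3 and Eda2r cross from below 0 to above 0, and that of Trp53 ends at -0.01.

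Levels can be compared between genes only per length, here as CPM per kilobase of annotated exon. In the room-air atrium the order was Ccng1 (56.7 ± 8.28), Phlda3 (23.1 ± 1.64), Trp53 (13.5 ± 0.274), Cdkn1a (12.8 ± 0.892), Mdm2 (11.2 ± 0.744), Trp53inp1 (5.80 ± 0.605), Aen (3.88 ± 0.211), Zmat3 (2.40 ± 0.221), Sesn2 (1.97 ± 0.186) and Eda2r (0.868 ± 0.141), SD over 5 libraries. The libraries of Trp53 and Cdkn1a overlapped there on this scale. In the hyperoxic atrium Cdkn1a (66.9 ± 6.75) came next to Ccng1 (133 ± 11.2), level with Phlda3 (60.8 ± 14.1) within their SD, and Sesn2 (11.2 ± 1.29) stood above Trp53inp1 (8.79 ± 2.01), with overlapping SD. These values depend on the annotated length, which counts all exons of a gene, and on isoforms that were not measured.

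Among the hyperoxic atria the 10 genes did not vary together, and the short and long transcripts differed. Phlda3, the shortest at 1559 exon bases, was higher by 0.58 on the log2 scale in atria 2 and 4 than in 1, 3 and 5. Cdkn1a, Sesn2 and Ccng1, at 3475 to 3553 bases, differed by -0.10 to 0.01. Eda2r, Trp53inp1, Aen and Zmat3, at 5801 to 11435 bases, were lower in 2 and 4 by -0.70, -0.56, -0.54 and -0.45. Relative to the room-air mean, all 9 genes that rose were higher in both sets of libraries. For Trp53inp1 the log2 ratio was 0.24 for atria 2 and 4 and 0.80 for 1, 3 and 5, and for Phlda3 1.71 and 1.13. The part of the tilt in each value was not tested beyond the settings named.

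**Figure D4:**
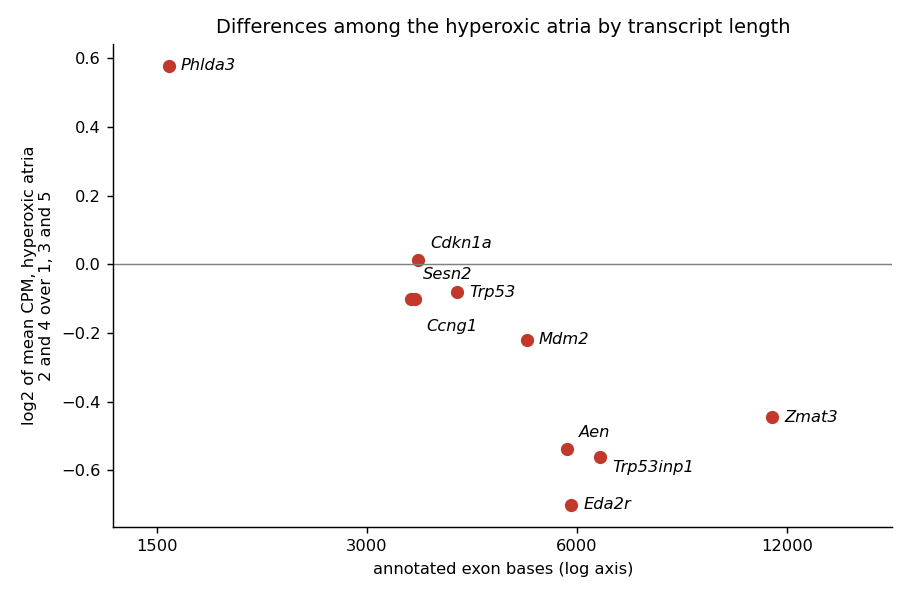
Log2 ratio of mean CPM in hyperoxic atria 2 and 4 (the tilted libraries) to that in atria 1, 3 and 5, for each gene against its annotated exon bases on a log axis. Phlda3, the shortest, lies at 0.58, and the 4 longest genes lie between -0.70 and -0.45.

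The genes whose profile over the 20 libraries was nearest to Cdkn1a were ranked by the root mean square difference of log2 CPM, each centred on its own mean, over 11476 genes of at least 5 CPM in a group. The nearest 5 were Cyb5r1 (0.19), a cytochrome b5 reductase, Sars (0.28) and Gars (0.32), the seryl- and glycyl-tRNA synthetases, Uck2 (0.29), a uridine-cytidine kinase, and Pvt1 (0.30), a long noncoding RNA. Pvt1 also belongs to the list of arrest, signalling and other p53 targets described below. Cyb5r1, for example, was at 30.9 CPM in the room-air atrium, 147 in the hyperoxic atrium, and 41.5 and 46.9 CPM in the ventricles. Of the other 9 genes, Aen ranked 6, Sesn2 9, Phlda3 34, Eda2r 92, Zmat3 150, Mdm2 153, Ccng1 199, Trp53inp1 716 and Trp53 4406. The libraries share their groups, so this order describes likeness and carries no test.

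Transcripts of proteins that control p53 moved in both directions in the atrium and passed no more often than all genes did. There 43.9% of all genes passed, 19.7% higher and 24.2% lower. Of 16 tested upstream kinases and damage sensors 4 were higher in the hyperoxic atrium, 1 was lower and 11 missed the threshold (median log2 difference -0.07). Atr, a kinase that senses stalled replication, rose by 0.47 (SE 0.10, adjusted p = 5.9e-04), and Prkdc, the DNA-dependent protein kinase, fell (log2 -0.47, SE 0.13, adjusted p = 0.0046). Of 18 tested regulators of p53 stability or activity 3 were higher, 3 lower and 12 did not pass (median -0.06). Rchy1, a ubiquitin ligase for p53, rose by 0.66 (adjusted p = 2.5e-06), as did the ribosomal protein gene Rpl5 (0.82, adjusted p = 5.4e-04), whose product binds MDM2. Trp53bp2 (-0.51) and Crebbp (-0.44) fell. Trp63, the p53 relative that could be tested, fell in the atrium from a mean of 0.913 to 0.337 CPM (log2 -1.40, SE 0.45, adjusted p = 0.014). In the ventricle 5 of the 16 upstream genes were higher and 1 was lower (median 0.29, against 0.28 for the 10 genes), where 10.9% of all genes passed. By p the first were the damage sensor genes Mre11a (0.30, adjusted p = 0.023), Rad9a (0.35) and Mdc1 (0.36), which rose, and H2ax (-0.54), which fell. Of the 18 regulators 1 passed, Trp53bp2 (0.28, adjusted p = 0.046).

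Other known p53 targets, listed by role, moved both ways in the atrium with more of them higher. There 19.7% of all genes were higher and 24.2% lower. Of 15 apoptosis and death receptor targets 9 were higher, 1 lower and 5 did not pass (median 0.33). Pmaip1, the BH3-only gene for NOXA, rose from 0.872 ± 0.144 to 6.33 ± 0.905 CPM (log2 2.85, SE 0.25, adjusted p = 9.6e-09), and Bax, a pore-forming effector, from 27.1 ± 4.22 to 79.6 ± 24.2 CPM (log2 1.56, SE 0.17, adjusted p = 3.6e-07). The death receptor gene Tnfrsf10b rose by 1.31, and Steap3, a metalloreductase gene, fell (log2 -0.92). Of 21 repair, redox and metabolism targets 9 were higher, 3 lower and 9 did not pass (median 0.12), with Sco2 (1.83) and Dcxr (1.73) up, Tigar up by 0.58 and Pank1 down (-0.60). Of 30 arrest, signalling and other targets 16 were higher, 7 lower and 7 did not pass (median 0.37). Gdf15, a secreted stress cytokine, rose from 1.504 ± 0.332 to 49.3 ± 11.9 CPM (log2 5.03, SE 0.25, adjusted p = 3.1e-12), while Slc19a2 rose by 1.81, Psrc1 by 1.78, and Trp53i11 fell (log2 -1.60).

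In the ventricle few genes of the same 3 target lists passed, as was so for all genes tested, of which 10.9% passed. None of the 15 apoptosis targets passed with edgeR, and their median was -0.06. Bax was lower without passing, at 48.7 ± 9.87 CPM in room air and 34.2 ± 5.19 CPM in hyperoxia (log2 -0.51, SE 0.17, adjusted p = 0.057). In the repair list 2 rose (Pank1 by 0.33 and Sesn1 by 0.27) and Gadd45a fell (-0.56), and 18 did not pass. In the arrest list 2 rose (Gdf15 by 1.17 and Slc19a2 by 0.47), 3 fell, among them Pltp (-0.89) and Trp53i11 (-0.61), and 25 did not pass.

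**Figure D5:**
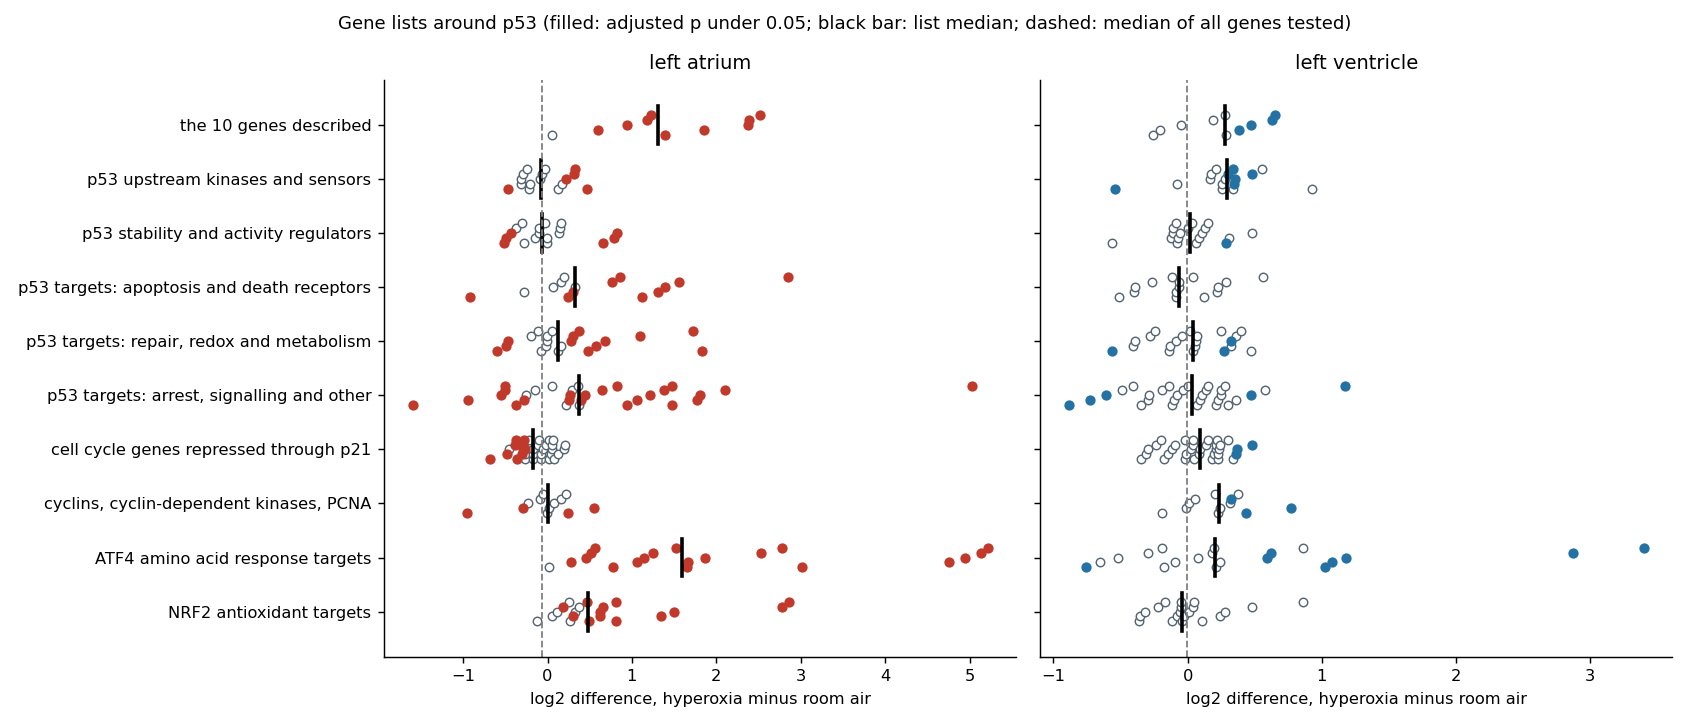
Log2 differences between hyperoxia and room air for the 10 genes and the lists around them, in the left atrium and left ventricle; each point is a gene, filled where the adjusted p is under 0.05, with the list median as a black bar and the median of all genes tested as a dashed line. The 10 genes have an atrial median of 1.31 and the ATF4 list one of 1.59, while all ventricular list medians lie between -0.06 and 0.29.

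Next came the cell cycle genes that p21 is known to hold down through the DREAM complex. Of 34 tested 10 were lower in the hyperoxic atrium, none was higher and 24 did not pass, where 24.2% of all genes were lower and 19.7% higher. Their median was -0.17 (all genes -0.06). The 4 with the smallest p were Aurkb (28.0 ± 3.89 to 21.6 ± 1.17 CPM, log2 -0.37, adjusted p = 0.0017), Cenpf (-0.48), Ccna2 (-0.31) and Plk1 (-0.38), all mitotic or S-phase genes. In the ventricle 3 of the 34 were higher, the replication genes Mcm2 (0.48, adjusted p = 0.0039) and Mcm5 (0.36) and the phosphatase gene Cdc25a (0.37), and 31 did not pass. Of all genes 5.64% were higher there. The difference between the responses passed for 13 of 34, all lower in the atrium, where 36.5% of all genes passed and 19.5% were lower. In hyperoxia 33 of the 34 were lower in the atrium than in the ventricle (23.6% of all genes), and in room air 22 were (26.3% of all genes).

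Partners of p21 and the other kinase inhibitors showed no common direction in the atrium and passed no more often than all genes did. Of all genes 43.9% passed there, 19.7% higher and 24.2% lower. Of 12 genes for cyclins, kinases, PCNA and the pocket proteins of the retinoblastoma family, Ccnd1 (log2 0.55, adjusted p = 1.6e-05) and Cdk4 (0.24) were higher, the pocket protein gene Rbl2 (-0.95) and Cdk2 (-0.29) lower, and 8 did not pass. Of 5 other inhibitors that could be tested Cdkn2c (43.0 ± 4.35 to 28.1 ± 1.69 CPM, log2 -0.61, adjusted p = 6.3e-05) and Cdkn1b (-0.44) fell, and none rose, unlike Cdkn1a. Cdkn2a, the gene of p16 and ARF, had 128 counts over all 20 libraries and did not pass the filter. In the ventricle, where 10.9% of all genes passed, Ccne2 (0.77, adjusted p = 0.0077), Ccne1 (0.43) and Cdk2 (0.32) rose, and none of the 5 inhibitors passed.

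Of 10 tested paralogs and partners of the 10 genes, 1 was higher in the hyperoxic atrium, 4 were lower and 5 did not pass, with a median of -0.70. Of all genes 19.7% were higher there and 24.2% lower. Sesn3, the paralog of Sesn2, fell from 56.1 ± 6.99 to 26.5 ± 5.74 CPM (log2 -1.08, SE 0.12, adjusted p = 5.6e-07), and Ccng2, the paralog of Ccng1, from 38.5 ± 2.04 to 17.4 ± 3.42 CPM (log2 -1.15, SE 0.16, adjusted p = 7.1e-06). Eda, which encodes the ligand of EDA2R, fell from 23.3 ± 1.01 to 8.66 ± 2.32 CPM (log2 -1.42, SE 0.15, adjusted p = 1.8e-07) while its receptor gene rose. Trp53inp2, the paralog of Trp53inp1, fell by 0.52 on the log2 scale. In the ventricle, where 10.9% of all genes passed, 1 of the 10 did, Sesn1 (0.27, adjusted p = 0.038).

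Because Sesn2 is shared with other stress pathways, lists for those were read beside it. Over all genes 19.7% rose and 24.2% fell in the atrium, and 5.64% rose and 5.28% fell in the ventricle. Of 14 genes of GATOR and mTORC1 amino acid sensing 4 rose, 3 fell and 7 did not pass in the atrium. Castor2 (log2 -1.03, adjusted p = 4.9e-07) and its paralog Castor1 (-0.63) were lower, and Sec13, a GATOR2 subunit gene, was higher (0.42). Of 20 ATF4 amino acid response targets 19 rose in the atrium (median 1.59), among them Asns (4.95) and Trib3 (4.76), and 7 rose and 1 fell in the ventricle. Of 20 NRF2 antioxidant targets 13 rose in the atrium (median 0.48), among them Osgin1 (2.87), Slc7a11 (2.78) and Srxn1 (1.499), and none passed in the ventricle. The part of each factor in the values of Sesn2 and of the other p53 targets was not tested.

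Markers of other cells moved with oxygen too. For scale, 19.7% of all genes rose and 24.2% fell in the atrium, and 5.64% and 5.28% in the ventricle. Macrophage markers rose in the atrium for 7 of 8 genes, with the sum over the list at 179 to 220.2 CPM in room air and 261 to 556 CPM in hyperoxia, and in the ventricle for 3 of 8, from 96.9 to 116 CPM up to 134 to 157 CPM. Fibroblast markers fell in the atrium for 7 of 8 genes and rose for 1 (summed 6276 to 7210 CPM in room air, 3169 to 4349 CPM in hyperoxia) and endothelial markers also fell for 7 of 8 and rose for 1 (1097 to 1278 CPM, then 812 to 977 CPM). In the ventricle 4 of 8 endothelial markers fell (1981 to 2171 CPM, then 1526 to 1717 CPM) and 1 of 8 fibroblast markers did (2149 to 3264 CPM, then 1963 to 2610 CPM). Of 6 atrial cardiomyocyte markers 1 rose and 2 fell in the ventricle, with sums that did not overlap (1042 to 1957 CPM, then 243 to 864 CPM). In the atrium 2 of these rose and 1 fell (17809 to 22954 CPM, then 25999 to 50144 CPM). In the atrium 3 of 4 tested neutrophil markers rose (2.64 to 4.64 CPM, then 3.19 to 9.97 CPM), and 4 of 5 ventricular cardiomyocyte markers fell (485 to 918 CPM, then 389 to 777 CPM). Among the genes concerned, Cd68 rose by 1.52, and Lum (-1.34) and Cldn5 (-1.63) fell. Smooth muscle and pericyte markers fell in the atrium for 5 of 8 genes and rose for 2. Endocardial markers fell there for 3 of 4 and rose for 1. General cardiomyocyte markers fell for 3 of 8 and rose for 1, and epicardial markers rose for 2 of 5. Mast cell sums fell without overlap in the atrium (54.1 to 88.3 CPM, then 23.1 to 45.9 CPM), where 1 of 5 genes passed. Erythroid sums did so in the ventricle (1802 to 2853 CPM, then 901 to 1266 CPM), where 2 of 6 genes fell. No marker of these lists was without counts. Their part in the values of the 10 genes was not tested.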

How the data were processed

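Polyadenylated RNA libraries (20, 5 in each of 4 groups) were described by deposited raw read counts per gene symbol, which the authors did not normalize. The tools named in the submitters' processing notes are STAR 2.7.6a, featureCounts, Subread 2.0.1, Salmon 1.3.0 and fastp 0.20.1, with the build GRCm38.p6. The annotation release and strand setting are not given in the sources used here, so reads of Cdkn1a and of the transcript model AC167363.2 on the opposite strand, which share 273 exonic bases, may not be told apart. The labels' protocols name a stranded kit and give 2 different extraction kits. No column of per-sample values was left unused (0). Libraries of a group differed beyond sampling noise (chi-square over its degrees of freedom at least 13.3).

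In R 4.3.3, edgeR 4.0.16 was run with filterByExpr, TMM scaling and a robust quasi-likelihood fit of 1 coefficient per group to all 20 libraries, after tests on simulated data. The SE is the log2 difference over the square root of F. Alternatives used DESeq2 1.42.0, limma 3.58.1 (voom), other scalings and filters, covariates, and left-out libraries. The length slope used 11128 genes of at least 5 CPM, with exon lengths from GENCODE on GRCm38. Profile likeness used log2(CPM + 0.5). The 10 genes and all lists were chosen with earlier results of these data known. Beyond the 10 genes, the text names up to 4 genes of smallest p per list (3 for cell types). The p-values measure the spread between these libraries. Mouse numbers are given within groups only.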

Additional observations from a re-analysis of the deposited data

Results flagged for a closer look

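In 4 of 40 sets of 5 libraries, 1 library lay far from the others of its group by Dixon's criterion, which chance alone passes in about 1 set in 20. Cdkn1a was lowest in hyperoxic ventricle 2 (48.0 CPM). Mdm2 was highest in hyperoxic ventricle 4 (75.9 CPM). Ccng1 was highest in room-air atrium 5 (249 CPM), and Trp53inp1 was highest in room-air ventricle 5 (30.8 CPM).

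For 8 genes the response to hyperoxia differed between the chambers when the difference itself was tested, with the larger rise in the atrium each time. The atrial minus the ventricular log2 difference was 2.44 for Cdkn1a, 1.86 for Sesn2, 1.75 for Eda2r, 1.60 for Phlda3, 1.38 for Aen, 0.89 for Zmat3, 0.85 for Ccng1 and 0.75 for Mdm2.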

How the results depend on the processing

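The atrial count of 9 was 8 in the subset whose Y-linked reads outnumber Xist and 8 or 9 in all 33 settings. Counted in either direction, the 4 in the ventricle ranged from 1 to 4 with 1 library left out. It was 1 without hyperoxic ventricle 4 and room-air ventricles 1 and 4 together, 0 in the subset whose Y-linked reads outnumber Xist, 1 after adding Y-linked reads to the model, 1 after adding these and the length slope, and 0 after adding ventricular Myl7. The share of all genes passing in the ventricle ran from 0.693% to 19.4% over the settings. That share also moved by over 1.5 times in the atrium (20.2% with no filter and 28.3% with both covariates, against 43.9%), in the difference of the responses (16.0% with no filter, 15.9% with the length slope and 16.0% with both covariates, against 36.5%) and, with no filter, in the chamber comparisons (27.7% against 55.0% in room air, 24.5% against 48.8% in hyperoxia). No value that changed sign passed. Trp53 in the atrium was -0.041 in the subset whose Y-linked reads outnumber Xist. Cdkn1a in the ventricle was 0.027 with voom, 0.029 without those 3 ventricles, and -0.089 to 0.059 with 1 library left out. Phlda3 in the ventricle was 0.070 with the length slope and 0.029 with both covariates, where Trp53inp1 was -0.043. For Trp53inp1 the difference of the responses was -0.0088 in the subset whose Y-linked reads outnumber Xist. In the room-air chamber comparison Mdm2 was -0.015 with RLE scaling and with DESeq2, -0.038 with upper-quartile scaling, -0.096 with a 1 CPM filter, -0.020 with only the libraries compared, -0.0024 in the subset whose Y-linked reads outnumber Xist, -0.061 with the length slope, -2.5e-04 with Y-linked reads and -0.053 with both. Sesn2 was -0.024 with the 1 CPM filter. In the hyperoxic chamber comparison Trp53 was 0.016 with RLE scaling and with DESeq2, 0.017 with upper-quartile scaling, 0.021 without the 3 tilted libraries, 0.042 with the length slope, 0.0046 with Y-linked reads and 0.074 with both. With 1 library left out Mdm2 in room air ran from -0.092 to 0.035, Sesn2 in room air from -0.021 to 0.12 and Trp53 in hyperoxia from -0.063 to 0.033. The cause was not tested.

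The replicate block left the counts of the 10 genes at 9 in the atrium and 4 in the ventricle, and a block on oxygen level and number left them at 8 for the difference, 7 in room air and 9 in hyperoxia. Same-numbered libraries of the 2 chambers deviated together (r over 0.1) in 5 of 9 pairs, with a median r of 0.14. Differently numbered ones did so in 12 of 41, with a median r of -0.015. The highest values were those of room-air pairs 3 (0.51) and 4 (0.56). Across oxygen levels the counts were 5 of 9 and 16 of 41. Whether the numbers pair samples is not settled by this, and the main fit took no pairing. Depth was lowest for Sesn2 and Eda2r, with at least 129 and 144 counts a library.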
